A study of Mus musculus with 12 samples.

Results

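Depot differences that depend on how fat was sampled were measured on 12 of the 12 arrays of the series. For each gene the measure was the interaction of depot and preparation, which is visceral minus subcutaneous fat in adipose progenitor preparations (AP) minus the same difference in adipose tissue (AT). Each of the 4 groups held 3 arrays: AP from inguinal subcutaneous fat (AP SAT), AP from perigonadal visceral fat (AP VAT), and unfractionated tissue of the same depots (AT SAT and AT VAT). All samples came fresh from C57BL/6 mice, a common laboratory strain. AP were made by dissociating fat with enzymes and taking the stromal-vascular fraction, from which beads removed lineage-positive blood cells and CD31+ endothelial cells. They are therefore what remained after a depletion, not cells sorted on a progenitor marker. The labels give no age or sex and do not say how many mice gave 1 sample. They also do not say whether samples with the same number came from the same mice, between SAT and VAT or between AP and AT. The p-values therefore speak only of the variation among these 12 samples.

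Fat depots differ in developmental origin, and their stromal cells keep transcription factors of body position that mark where they arose. Visceral fat is covered by mesothelium, the epithelium that lines body cavities, and subcutaneous fat of mice can hold beige adipocytes, which burn fuel to make heat. The stromal-vascular fraction holds the precursors of fat cells, whereas whole tissue adds the lipid-filled adipocytes, vessels and leukocytes. In bulk samples such as these, fewer cells of a type and less RNA per cell cannot be told apart.

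The cell content of the preparations was read from marker genes, in log2 RMA intensity (a background-corrected, quantile-normalized array brightness). Pdgfra, a receptor that marks progenitors, was 10.86 to 11.23 in the 6 AP arrays and 8.31 to 9.64 in the 6 AT arrays. Adipoq, the adipocyte hormone adiponectin, was 4.14 to 5.55 in AP and 10.27 to 10.61 in AT, with no call between depots in either. Values near 4.10, the 40th percentile of all probe set means, are called near background here. AT SAT replicate 3 stood apart from the others of its group: Ucp1, the heat-making uncoupling protein, was 4.55 there against 10.76 and 8.62. Cd3e, a T cell receptor subunit, was 5.19 there against 6.94 and 6.61, and Pdgfra was 9.64 against 8.82 and 8.31.

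Among 22180 genes tested with limma, 476 had an interaction at a Benjamini-Hochberg adjusted p under 0.05 (2.15%), and such a gene is said to be called. The depot difference was more positive in AP for 219 genes (0.987%) and more negative in AP for 257 (1.16%). The median interaction of all genes was at 0 to 2 decimals, the smallest one called was 0.55 on the log2 scale, and 222 of those called were at least 1. Depot differences themselves were called for 1250 genes in AP (5.64%; 3.03% higher and 2.6% lower in VAT) and 1009 in AT (4.55%; 2.8% higher and 1.75% lower). Of these, 381 were called in both, 360 with the same sign. Across genes, which are not independent replicates, the depot differences of AP and AT had a Pearson r of 0.43.

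A depot difference was counted as found in 1 preparation only where it was called there, was not called in the other, and the interaction was called too. That held for 224 genes in AP (1.01%), 120 of them higher (0.541%) and 104 lower (0.469%) in VAT. It held for 155 genes in AT (0.699%), 93 higher (0.419%) and 62 lower (0.28%) in VAT. A further 21 genes were called in both preparations with opposite signs (0.0947%), and 39 were called in both with the same sign but unequal size (0.176%). In all 224 AP-only genes the AP values of SAT and VAT did not overlap, against 20.4% of all genes, and in all 155 AT-only genes the AT values did not, against 18.1%; the class rule fixes this. The remaining 37 genes with a called interaction had no called depot difference in either preparation (0.167%). Without the demand on the interaction, 869 genes would have counted for AP and 628 for AT, so for 645 and 473 genes the 2 preparations were not shown to differ. Because these classes are defined by the same 3 tests, the values below describe their members.

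**Figure D1:**
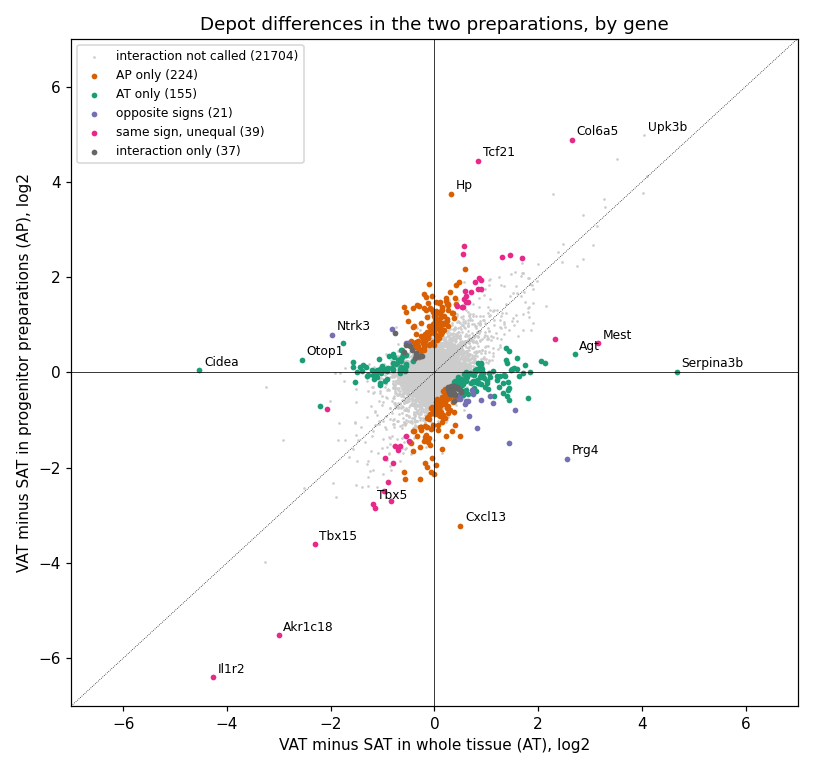
Each point is 1 of 22180 genes, plotted by its VAT minus SAT difference on the log2 scale in AT (horizontal) and in AP (vertical), with colours for the classes of genes with a called interaction and grey for the rest. The 224 AP-only genes lie along the vertical axis and the 155 AT-only genes along the horizontal axis, and the dotted line marks equal differences. Upk3b is an example of a gene called higher in VAT in both preparations without a called interaction.

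The counts depended on single arrays. Leaving out 1 array gave between 264 called interactions (without AP SAT replicate 1) and 626 (without AT SAT replicate 3), and 416 of the 626 were among the 476. The count was also more than 1.5 times lower without AP SAT replicate 2 (309), AP VAT replicate 2 (279) or AT SAT replicate 1 (293). Over 22 alternatives in all, 96 of the 476 genes kept a called interaction in every one, 35 of them AP-only genes and 34 AT-only genes. The class itself was less stable. It held in every alternative for 27 of the 224 AP-only genes, 29 of the 155 AT-only genes and 2 of the 21 genes of opposite sign. For most genes below, the alternatives that ended a call are given beside it. Adjusting p-values over all probe sets also ended the call of each gene said below to lose it when an array was left out.

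The AP-only genes that were higher in VAT were led by Hp, which encodes haptoglobin, a haemoglobin-binding acute-phase protein that adipocytes also secrete (NCBI Gene 15439). Hp was 5.55, 6.32 and 6.45 in AP SAT and 9.92, 9.56 and 10.08 in AP VAT. In whole tissue it was high in both depots, at 11.49, 11.80 and 11.79 in AT SAT and 11.88, 12.06 and 12.12 in AT VAT. The AP groups were thus far apart and the AT groups close, without overlap in either. The difference was 3.75 in AP (SE 0.198, 13.4-fold, limma adjusted p = 1.09e-08) and 0.33 in AT (95% interval -0.10 to 0.75), with an interaction of 3.42 (SE 0.28, limma adjusted p = 1.68e-05). The summed intensity of 17 mature adipocyte markers, all above background, was 4502 to 4967 in AP SAT and 4160 to 4719 in AP VAT, which overlap; its part in the Hp result was not tested.

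Lrrn1, a leucine-rich repeat protein of the cell membrane, had the second largest interaction of this class at 1.97 (SE 0.191, limma adjusted p = 6.9e-05). It was 6.14, 5.84 and 5.88 in AP SAT against 8.0, 7.75 and 7.70 in AP VAT. In tissue its values were 4.83, 5.0 and 4.82 in SAT and 4.96, 4.87 and 4.50 in VAT, which overlap. Fndc5, the membrane precursor of the secreted peptide irisin, behaved alike, with 6.44, 6.49 and 6.44 in AP SAT and 8.40, 7.85 and 8.05 in AP VAT. Its AT values overlapped, at 6.21, 6.21 and 6.10 in SAT and 5.92, 5.75 and 6.27 in VAT, and its interaction was 1.84 (SE 0.205, limma adjusted p = 0.000312). Both genes therefore had a depot difference of over 3-fold in AP, by 3.64 and 3.12 times, and AT intervals that included 0.

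Several genes of this class were brighter in tissue than in AP. Aldh1a7, a cytosolic aldehyde dehydrogenase, was 4.44, 4.13 and 4.66 in AP SAT, 5.47, 6.42 and 6.11 in AP VAT, and 8.99 to 9.51 in the 6 AT arrays, with an interaction of 1.76 (SE 0.292, limma adjusted p = 0.00564). Aspa, which cleaves N-acetylaspartate, was 5.89, 5.72 and 5.25 in AP SAT and 7.25, 6.81 and 6.83 in AP VAT, against 7.51 to 8.19 in AT. Adgrg1, an adhesion G protein-coupled receptor, was 4.74, 5.18 and 5.11 in AP SAT and 6.37, 6.30 and 6.63 in AP VAT, against 6.86 to 7.61 in AT. St3gal6, a sialyltransferase, was 5.44, 5.25 and 5.49 in AP SAT and 6.71, 6.61 and 6.67 in AP VAT. In each of these genes every AP VAT array lay above every AP SAT array, with AP differences between 1.27 (St3gal6) and 1.59 (Aldh1a7), and the interactions of Aspa, Adgrg1 and St3gal6 were 1.76, 1.75 and 1.82. The AT difference of St3gal6 was -0.55 (limma adjusted p = 0.0624), close to the threshold, and it kept this class in 18 of 22 alternatives.

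Kdr, the main receptor for vascular endothelial growth factor, is a marker of the endothelial cells that the beads were meant to remove. It was 5.19, 5.27 and 4.85 in AP SAT and 6.30, 6.42 and 6.71 in AP VAT, a 2.59-fold difference. In tissue it was 8.50, 8.55 and 8.45 in SAT and 7.84, 8.31 and 7.62 in VAT, lower in VAT in every array but with an adjusted p of 0.0632 by limma. The interaction was 1.95 (SE 0.233, limma adjusted p = 0.000489), called in every alternative, and the class held in 17 of 22. Of 17 endothelial markers measured, 2 had a called interaction (2.15% of all genes had), Kdr and Emcn, a surface sialomucin. The Emcn call was lost in 14 of 22 alternatives (adjusted p up to 0.233), among them the omission of any array but AT SAT replicate 2 and AT VAT replicate 2. The median interaction of the 17 was -0.02. Pecam1, which encodes the CD31 antigen itself, was 4.81 to 5.05 in AP SAT and 4.80 to 5.12 in AP VAT, with no call in either preparation. The summed intensity of the 17 markers was 1009 to 1094 in AP SAT and 849.3 to 962.8 in AP VAT, while their mean log2 level overlapped, at 5.34 to 5.49 and 5.38 to 5.42. The part of endothelial cells in the Kdr result was not tested.

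Signalling genes were also among the AP-only genes higher in VAT. Inhbb, the beta subunit of activin B, was 5.27, 5.14 and 5.22 in AP SAT and 6.73, 6.65 and 6.76 in AP VAT, against 5.54 to 6.09 in the 6 AT arrays. Its interaction was 1.27 (SE 0.185, limma adjusted p = 0.00191), lost only where arrays were shifted to equal housekeeping genes (adjusted p = 0.101). Lifr, a receptor of the interleukin 6 family, was 7.50, 7.53 and 7.86 in AP SAT and 8.73, 8.30 and 8.76 in AP VAT, with an interaction of 1.35 (limma adjusted p = 0.00746, or 0.0545 after the housekeeping shift). Igf1, an insulin-like growth factor, was 1.04 higher in AP VAT and 0.17 higher in AT VAT, but its interaction of 0.87 (limma adjusted p = 0.0297) was lost in 10 of 22 alternatives, among them the housekeeping shift (0.829) and the omission of any array but AP SAT replicate 2, AP VAT replicate 3, AT SAT replicate 3 and AT VAT replicate 2 (adjusted p = 0.0507 to 0.0895).

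The AP-only genes that were lower in VAT were led by Cxcl13, a chemokine that draws B cells into lymphoid structures (NCBI Gene 55985). Cxcl13 was 11.64, 11.68 and 12.19 in AP SAT and 8.48, 8.82 and 8.54 in AP VAT, a 9.34-fold difference with no overlap. In tissue the replicates were far apart, at 9.15, 7.52 and 10.55 in SAT and 9.77, 10.26 and 8.70 in VAT. The AT difference was 0.50 with a 95% interval of -0.63 to 1.64, so tissue differences within that range could not be told from 0. The interaction was -3.73 (SE 0.752, limma adjusted p = 0.0172), lost with limma's trend and robust options (0.121) and when p-values were adjusted over all probe sets (0.0832).

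Ednrb, a receptor for endothelins, was steadier: 8.54, 8.46 and 8.63 in AP SAT and 6.44, 6.29 and 6.47 in AP VAT. Its tissue values were 8.63, 8.29 and 9.36 in SAT and 8.72, 8.61 and 8.93 in VAT, a difference of -0.01 (95% interval -0.42 to 0.41). Only the AP VAT arrays were low, and the interaction was -2.14 (SE 0.276, limma adjusted p = 0.000815). Kcnk5, a potassium channel, was 8.42, 8.03 and 7.45 in AP SAT and 5.60, 5.92 and 6.09 in AP VAT, against 4.77 to 5.80 in AT. Here only the AP SAT arrays were high, with an interaction of -2.04 (SE 0.352, limma adjusted p = 0.007). Itgb7, an integrin subunit of leukocytes, showed the same shape, with 7.44, 7.45 and 6.98 in AP SAT, 5.38, 5.22 and 5.32 in AP VAT, and 4.98 to 5.76 in AT. Mast cell markers moved with it in AP, where the summed intensity of 11 was 2409 to 2696 in SAT and 1054 to 1476 in VAT. In AP VAT, 5 of the 11 were called lower (2.6% of all genes were) and 1 higher (3.03%). The same 11 had 5 called lower in AT VAT (1.75%) and no called interaction. Their summed intensity was 725.9 to 1516 in AT SAT against 432.9 to 490.9 in AT VAT. The part of mast cells in the Itgb7 result was not tested.

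C4b, the fourth component of complement, was 10.53, 10.59 and 10.73 in AP SAT and 8.50, 7.95 and 8.66 in AP VAT. In tissue both depots stayed near the AP SAT level, at 10.01, 9.91 and 10.34 in SAT and 9.53, 9.74 and 10.13 in VAT. Its interaction was -1.96 (SE 0.259, limma adjusted p = 0.00101). Dmrt2, a transcription factor of early mesoderm, was 6.87, 6.78 and 6.50 in AP SAT and 5.60, 5.10 and 5.42 in AP VAT, but 6.27, 6.65 and 6.62 in AT SAT and 6.93, 7.15 and 6.95 in AT VAT. The AT difference of Dmrt2 pointed the other way (0.50, limma adjusted p = 0.0753), and its interaction was -1.84 (SE 0.208, limma adjusted p = 0.000336). Adgrg6, an adhesion receptor, differed by 3.85-fold in AP and by 1.02-fold in AT, with an interaction of -1.97 (limma adjusted p = 0.00965, or 0.0512 adjusted over all probe sets).

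Il6 and Has1 also belonged to this class, but both were near background in tissue, where no depot difference could be measured. Il6, the cytokine interleukin 6, was 9.21, 9.11 and 9.92 in AP SAT and 8.26, 7.83 and 8.15 in AP VAT, while all 6 AT arrays lay between 3.13 and 3.77. Has1, a hyaluronan synthase, was 8.61, 8.51 and 9.60 in AP SAT and 7.31, 6.97 and 7.6 in AP VAT, while the AT arrays lay between 3.45 and 4.25. Their interactions were -1.56 (limma adjusted p = 0.00847) and -1.76 (0.0215), the latter lost without AP VAT replicate 2 (0.0765), AT SAT replicate 1 (0.0613) or AT VAT replicate 2 (0.0518). Of the 224 AP-only genes, 9 had no AT group above background and 215 had one. For 222 of the 224, the 95% interval of the AT difference lay within 1 log2 unit of 0.

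**Figure D2:**
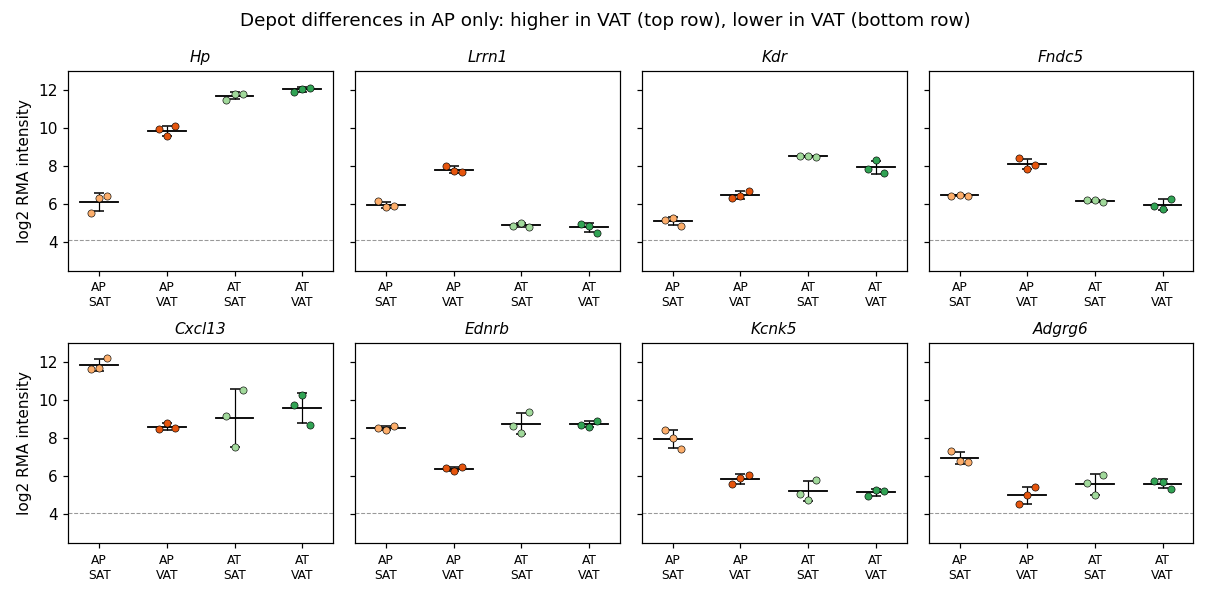
Log2 RMA intensity (vertical axis) of 8 AP-only genes in the 4 groups, with 1 point per array, bars at the group mean with its SD, and a dashed line at 4.10, near background. In AP every VAT array lies above every SAT array for Hp, Lrrn1, Kdr and Fndc5 and below it for the genes of the lower row, while the AT groups of most panels lie close together.

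Some chemokines and interferon-stimulated genes were also lower in AP VAT. Of 29 chemokines measured, 7 were called lower and none higher in AP VAT, against 3 lower and 1 higher in AT VAT. Interactions were called for 4 (2.15% of all genes), all negative: Cxcl13, Cxcl10, Cxcl9 and Ccl7 (the last named after its value of -1.19 was seen). The chemokine list as a whole did not follow, with 14 positive and 15 negative interactions and a median at 0 to 2 decimals. Of 12 interferon-stimulated genes, 7 were called lower in AP VAT and 1 in AT VAT, with median differences of -0.86 and -0.25, and the median interaction was -0.40. The all-gene medians were 0 to 2 decimals, and background shares of called falls were 2.6% in AP and 1.75% in AT. The interferon list had 3 called interactions, Usp18, Isg15 and Zbp1, all negative.

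Cxcl10, a chemokine for T cells that interferons induce, was 7.98, 8.05 and 7.47 in AP SAT and 6.10, 5.78 and 5.91 in AP VAT. In tissue both depots were at the lower level, with 5.93, 5.75 and 5.55 in SAT and 5.61, 5.57 and 5.53 in VAT. The AP SAT arrays alone were high, and the interaction was -1.73 (SE 0.21, limma adjusted p = 0.000523). Usp18, the protease that removes ISG15 from proteins, was 8.18, 8.02 and 7.71 in AP SAT and 5.89, 5.53 and 5.79 in AP VAT, against 5.31 to 6.57 in AT, with an interaction of -1.67 (SE 0.288, limma adjusted p = 0.007). Isg15, the ubiquitin-like modifier itself, was 6.75, 6.54 and 6.24 in AP SAT and 5.46, 5.15 and 5.48 in AP VAT, with AT arrays at 5.25 to 5.63. Its interaction of -0.88 (limma adjusted p = 0.0215) was lost without AP SAT replicate 1 or 2, AP VAT replicate 2 or AT SAT replicate 1 (0.0575 to 0.063) and after the housekeeping shift (0.188). Zbp1, a sensor of unusual nucleic acids, was lower in VAT in both preparations, with differences of -1.54 in AP and -0.75 in AT, and its interaction of -0.78 (limma adjusted p = 0.0196) was lost without AP SAT replicate 1 (0.0585) or 2 (0.0559) and after the housekeeping shift (0.319). The Cxcl9 call (-1.24) was lost in 12 of 22 alternatives, among them the omission of any AP array, AT SAT replicate 1 or AT SAT replicate 3 (adjusted p = 0.0723 to 0.106).

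Some interferons act through a promoter element whose core is GAAA, any 2 bases and GAAA again, and Isg15 and Cxcl10 are shown here with it. Cxcl10 came from the chemokine list. Promoters of Usp18 and Zbp1, the other interferon-stimulated genes with called interactions, were not available and could not be searched. It was searched on both strands of the 250 bases before the RefSeq start of each gene (GRCm38.p6), overlapping matches included, and bases of a match are in capitals. Isg15 (chr4:156200819-156201068, minus strand) held 3 overlapping matches and Cxcl10 (chr5:92348890-92349139, minus strand) held 1.
Isg15: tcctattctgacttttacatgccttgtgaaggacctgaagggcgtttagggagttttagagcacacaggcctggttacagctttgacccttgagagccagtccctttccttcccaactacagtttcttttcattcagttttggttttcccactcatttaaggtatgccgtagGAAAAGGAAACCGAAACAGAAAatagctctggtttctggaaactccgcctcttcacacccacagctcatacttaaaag
Cxcl10: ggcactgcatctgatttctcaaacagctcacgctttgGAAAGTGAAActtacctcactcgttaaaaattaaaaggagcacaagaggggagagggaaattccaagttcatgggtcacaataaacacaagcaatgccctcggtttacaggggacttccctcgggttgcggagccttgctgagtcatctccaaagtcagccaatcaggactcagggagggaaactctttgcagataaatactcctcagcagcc
Of 32851 promoters in the RefSeq table, 978 held the letters (2.98%). Counted by gene, with a match in any promoter of the gene, 5 of the 8 measured interferon-stimulated genes that the table lists held them. The first share is by promoter and the second by gene, so they are not directly comparable. A match is a description of the sequence and not evidence of binding. Cxcl9 had no match in this window, and no other element was searched.

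In the other direction, the AT-only genes that were lower in VAT were led by Cidea, a lipid droplet protein typical of brown and beige adipocytes (NCBI Gene 12683). Cidea was 10.64, 9.73 and 8.71 in AT SAT and 6.16, 4.57 and 4.76 in AT VAT, a 23.1-fold difference. In AP it was close to background in both depots, at 4.13, 4.35 and 4.41 in SAT and 4.30, 4.33 and 4.40 in VAT. The AT SAT arrays alone were high, and the interaction was 4.58 (SE 0.567, limma adjusted p = 0.000601). Otop1, a proton channel of brown fat, followed with 7.17, 6.43 and 5.88 in AT SAT and 3.85, 3.97 and 4.02 in AT VAT, against 3.82 to 4.34 in AP. Its interaction was 2.81 (SE 0.323, limma adjusted p = 0.000379), with the means of AT VAT and AP SAT below background, which limits its size. Lncbate1, a long noncoding RNA of brown fat, was 5.97, 6.33 and 6.27 in AT SAT and 4.85, 4.77 and 4.48 in AT VAT, against 3.98 to 4.31 in AP, with an interaction of 1.5 (limma adjusted p = 0.000638).

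Of 15 brown and beige fat genes measured, 6 were called lower in AT VAT (1.75% of all genes were) and 1 in AP VAT (2.6%), and none was called higher in either. Their median depot difference was -0.84 in AT and -0.02 in AP. Interactions were positive in 13 of 15 (10987 of 22180 over all genes), with 2 called (2.15%). Ucp1, the defining gene of heat production, did not pass: its AT SAT values of 10.76, 8.62 and 4.55 spread over 6 log2 units, so the interaction of 2.95 had an SE of 1.391 (limma adjusted p = 0.377). Without AT SAT replicate 3, the array with the value near background, its adjusted p was 0.00109. Cox8b, a muscle and brown fat subunit of cytochrome oxidase, was lower in VAT in both preparations (-1.42 in AP and -2.92 in AT), and its interaction of 1.5 was not called (limma adjusted p = 0.0898). The list's summed intensity was 2019 to 6859 in AT SAT, 1028 to 1245 in AT VAT, 1440 to 1545 in AP SAT and 1165 to 1305 in AP VAT.

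Of 14 genes of mitochondrial fatty acid oxidation, 5 were called lower in AT VAT (1.75% of all genes were), namely Acadl, Acadvl, Hadha, Cpt2 and Etfdh. Only Eci2 was called higher in AP VAT (3.03%). The list's median was -0.39 in AT and 0.02 in AP, and 13 of its 14 interactions were positive (10987 of 22180 over all genes). None was called, so these genes were not shown to differ between preparations. Pdk4, a kinase that holds back glucose oxidation, was 11.08, 9.76 and 9.32 in AT SAT and 8.49, 8.45 and 7.96 in AT VAT, against 7.02, 7.12 and 7.64 in AP SAT and 7.72, 7.66 and 8.27 in AP VAT. Its interaction was 2.38 (SE 0.47, limma adjusted p = 0.0154), lost with the trend and robust options (0.0717) and over all probe sets (0.0766). Slc2a5, a fructose transporter, had an interaction of 1.68 (limma adjusted p = 0.0186) that was lost without AP SAT replicate 1 (0.0553) or AP VAT replicate 2 (0.0614). Gys2, a glycogen synthase, and Chchd10, a mitochondrial protein, had interactions of 1.53 and 1.56. The Gys2 call was lost without AP SAT replicate 3, AP VAT replicate 2, AT SAT replicate 1 or 2 or AT VAT replicate 2 or 3 (adjusted p up to 0.0745). The Chchd10 call was lost without AP SAT replicate 1 or 3, AP VAT replicate 1 or 3, AT SAT replicate 1 or AT VAT replicate 3 (adjusted p up to 0.0735). Gbp4, a guanylate-binding protein below background in AP and in AT VAT, completed the leading 8 with an interaction of 1.80 that was lost in 14 of 22 alternatives, among them the omission of any array but AT SAT replicate 3 and AT VAT replicate 2 (adjusted p = 0.0566 to 0.0849).

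The matrix gene Postn and the pericyte gene Cspg4 belonged to this class too. The matrix list as a whole did not follow. In AT VAT, 11 of 29 non-collagen matrix genes were called higher (2.8% of all genes were) and 3 lower (1.75%), with a median of 0.11. Postn, the matrix protein periostin, was 9.52, 9.59 and 9.90 in AT SAT and 8.03, 8.75 and 8.38 in AT VAT, but 9.87 to 10.14 in the 6 AP arrays, with an interaction of 1.22 (limma adjusted p = 0.00967, or 0.15 after the housekeeping shift). Cspg4, a proteoglycan of pericytes, was 6.65, 6.53 and 6.54 in AT SAT and 5.60, 5.56 and 5.48 in AT VAT, but 6.22 to 6.71 in AP, with an interaction of 1.00 (limma adjusted p = 0.00581, or 0.533 after the housekeeping shift). In both genes only the AT VAT arrays were low. Myh11, the smooth muscle myosin, was instead an AP-only gene, 0.49 higher in AP VAT and with an AT difference of -0.30, at an interaction of 0.79 (limma adjusted p = 0.0106, or 0.996 after the housekeeping shift). Of 14 pericyte and smooth muscle genes, 5 were called higher in AP VAT (3.03% of all genes were), while in AT VAT 4 were higher (2.8%) and 2 lower (1.75%).

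The AT-only genes that were higher in VAT were led by Serpina3b, a serine protease inhibitor (NCBI Gene 271047), a gene with signal in 1 group alone. It was 8.16, 8.64 and 7.54 in AT VAT and near background everywhere else, at 3.45, 3.29 and 3.59 in AT SAT, 3.41, 3.30 and 3.34 in AP SAT and 3.61, 3.22 and 3.24 in AP VAT. The interaction was -4.66 (SE 0.287, limma adjusted p = 8.27e-07). Since Serpina3b was below the background line in AT SAT and in both AP groups, a depot difference in AP could not be measured, and the size of the AT difference and of the interaction is limited by background. Of the 155 AT-only genes, 15 had no AP group above background, and for 151 the 95% interval of the AP difference lay within 1 log2 unit of 0.

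Agt, angiotensinogen, the source of the pressor peptide angiotensin, was measurable in all groups. It was 5.63, 5.92 and 7.09 in AT SAT and 8.96, 8.92 and 8.88 in AT VAT, whereas AP held 8.20, 8.21 and 8.15 in SAT and 8.69, 8.51 and 8.49 in VAT. Only AT SAT was low, and the interaction was -2.33 (SE 0.353, limma adjusted p = 0.00273). Folh1, a membrane carboxypeptidase for glutamate and folate, was 4.35, 4.24 and 4.83 in AT SAT and 6.20, 6.30 and 6.34 in AT VAT, against 5.23, 5.0 and 4.93 in AP SAT and 4.34, 4.39 and 4.84 in AP VAT. Its interaction was -2.34 (SE 0.226, limma adjusted p = 6.9e-05). Oxtr, the oxytocin receptor, was 6.20, 5.48 and 5.73 in AT SAT and 7.41, 7.03 and 7.16 in AT VAT, against 4.73 to 5.56 in AP, with an interaction of -1.88 (SE 0.24, limma adjusted p = 0.000729).

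Eepd1, a nuclease, was 7.11, 6.71 and 7.21 in AT SAT and 8.60, 8.99 and 8.97 in AT VAT, and its AP values of 4.92 to 5.53 showed no depot difference (0.00). Atp6v0e2, a subunit of the proton pump of acidic organelles, was 5.83, 5.65 and 6.46 in AT SAT and 8.04, 8.02 and 8.05 in AT VAT, against 7.12 to 7.81 in AP. The interactions of Eepd1 and Atp6v0e2 were -1.84 and -1.81 (limma adjusted p = 0.00136 and 0.00143), called in all 22 alternatives. Tgfb3, a transforming growth factor, was 6.15, 6.29 and 6.84 in AT SAT and 7.81, 7.80 and 7.80 in AT VAT, against 8.58 to 9.06 in AP, with an interaction of -1.12 (SE 0.212, limma adjusted p = 0.0115). Timp4, an inhibitor of metalloproteinases, was 4.41-fold higher in AT VAT and 1.14-fold higher in AP VAT. Its interaction of -1.95 (limma adjusted p = 0.0193) was lost without AP VAT replicate 2 (0.0619), AP SAT replicate 3 (0.0538) or AT SAT replicate 1 (0.0539). Acta1, skeletal muscle actin, was 7.37, 8.08 and 7.03 in AT VAT and 5.88 to 6.37 in the other 9 arrays, with an interaction of -1.41 (limma adjusted p = 0.0169, or 0.0738 over all probe sets). The skeletal muscle list of 15 did not follow Acta1. It had 2 genes called higher in AT VAT (2.8% of all genes were), an AT median of -0.11 and 12 positive interactions.

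Complement genes were found on both sides. C6, a component of the membrane attack complex, was 6.02, 6.04 and 6.72 in AT SAT and 7.65, 8.26 and 7.18 in AT VAT, against 5.12, 5.16 and 4.75 in AP SAT and 4.67, 4.41 and 4.22 in AP VAT. C2, of the classical pathway, was 7.80, 8.13 and 7.83 in AT SAT and 8.77, 9.15 and 8.94 in AT VAT, against 8.76, 8.77 and 8.90 in AP SAT and 8.20, 8.43 and 8.78 in AP VAT. The interactions of C6 and C2 were -2.01 and -1.37 (limma adjusted p = 0.0058 and 0.00273). Of 21 complement and acute phase genes measured, 4 had a called interaction (2.15% of all genes had): C6, C2 and C4b negative and Hp positive. The list's median interaction was -0.25.

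**Figure D3:**
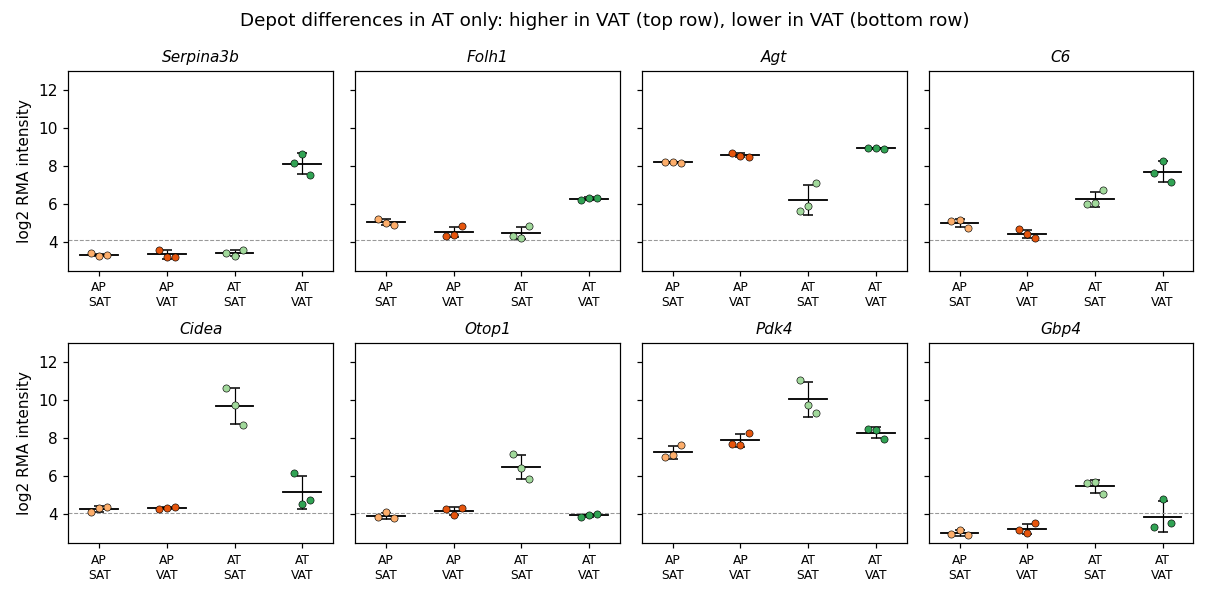
Log2 RMA intensity (vertical axis) of 8 AT-only genes in the 4 groups, with 1 point per array, bars at the group mean with its SD, and a dashed line at 4.10, near background. Serpina3b is high in AT VAT alone, Cidea and Otop1 are high in AT SAT, and Agt is low in AT SAT alone.

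Depot differences of opposite sign were called in 21 genes, 17 of them lower in VAT in AP and higher in VAT in AT (0.0766%). The largest was in Prg4, the lubricating proteoglycan of joints and serous surfaces (NCBI Gene 96875). Prg4 was 7.78, 8.30 and 10.31 in AP SAT and 6.71, 6.75 and 7.50 in AP VAT, but 5.02, 5.27 and 5.74 in AT SAT and 7.95, 8.18 and 7.56 in AT VAT. The groups did not overlap within either preparation, the AP difference of -1.81 stood against 2.55 in AT, and the interaction was -4.36 (SE 0.642, limma adjusted p = 0.00213). Prg4 kept opposite calls in 18 of 22 alternatives. Prr5, a subunit of the kinase complex mTORC2, had an SE among the smallest of these genes, with 7.09, 7.29 and 7.13 in AP SAT and 5.80, 6.13 and 6.08 in AP VAT. In tissue it was 7.30, 7.41 and 7.49 in SAT and 8.23, 8.28 and 8.16 in VAT, and its interaction was -1.99 (SE 0.157, limma adjusted p = 1.24e-05). Prr5 kept its class in all 22 alternatives.

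Rasl11b, a small GTPase, was 5.84, 5.49 and 5.28 in AP SAT and 4.75, 4.47 and 5.01 in AP VAT, but 4.78, 4.72 and 5.08 in AT SAT and 6.81, 6.39 and 6.02 in AT VAT, with an interaction of -2.34 (SE 0.277, limma adjusted p = 0.00046). Rasl11b kept opposite calls in 16 of 22 alternatives. Chrdl1, a secreted antagonist of bone morphogenetic proteins, was 9.35, 9.21 and 9.20 in AP SAT and 8.21, 8.85 and 8.77 in AP VAT. In tissue it was 8.35, 8.60 and 8.90 in SAT and 9.66, 10.03 and 9.55 in VAT. Cpne2, a calcium-dependent membrane-binding protein, was 9.0, 8.73 and 8.91 in AP SAT and 8.02, 7.65 and 8.23 in AP VAT, against 8.18, 8.21 and 8.81 in AT SAT and 9.13, 8.88 and 9.17 in AT VAT. The interactions of Chrdl1 and Cpne2 were -1.77 and -1.57 (limma adjusted p = 0.00149 and 0.00349), called in every alternative, but each kept opposite calls in only 10 of 22.

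Hspa1b, an inducible heat shock protein, was 11.33, 11.33 and 11.50 in AP SAT and 10.93, 10.91 and 10.86 in AP VAT, but 5.44, 5.45 and 5.32 in AT SAT and 6.51, 6.42 and 6.51 in AT VAT. Its interaction was -1.56 (SE 0.134, limma adjusted p = 2.61e-05). Hspa1b was the only one of 25 immediate early and dissociation stress genes with a called interaction (2.15% of all genes had one), and the list's median was -0.09. The mean log2 level of those 25 genes was at least 9.81 in the AP arrays and 6.15 to 6.50 in the AT arrays. Fos, the best known of them, was 10.64 to 10.88 in AP SAT and 10.73 to 11.01 in AP VAT.

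Genes higher in VAT in AP and lower in VAT in AT were 4 in number (0.018%), led by Ntrk3, the receptor for neurotrophin 3. Ntrk3 was 6.84, 6.78 and 6.59 in AP SAT and 7.41, 7.54 and 7.63 in AP VAT, but 7.90, 7.18 and 6.91 in AT SAT and 5.47, 5.41 and 5.19 in AT VAT, with an interaction of 2.76 (SE 0.266, limma adjusted p = 6.9e-05). Ntrk3 kept opposite calls in 17 of 22 alternatives. Pla2g7, which breaks down platelet-activating factor, was 4.60, 4.59 and 4.64 in AP SAT and 5.58, 5.41 and 5.60 in AP VAT. In tissue it was 7.36, 6.76 and 6.52 in SAT and 6.12, 6.20 and 5.86 in VAT, and its interaction was 1.74 (SE 0.237, limma adjusted p = 0.0012). The summed intensity of 20 macrophage and monocyte markers, in which this enzyme is also known to be expressed, was 1114 to 1341 in AP SAT, 845.1 to 950.5 in AP VAT and from 6815 upward in AT; their part in the Pla2g7 result was not tested.

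**Figure D4:**
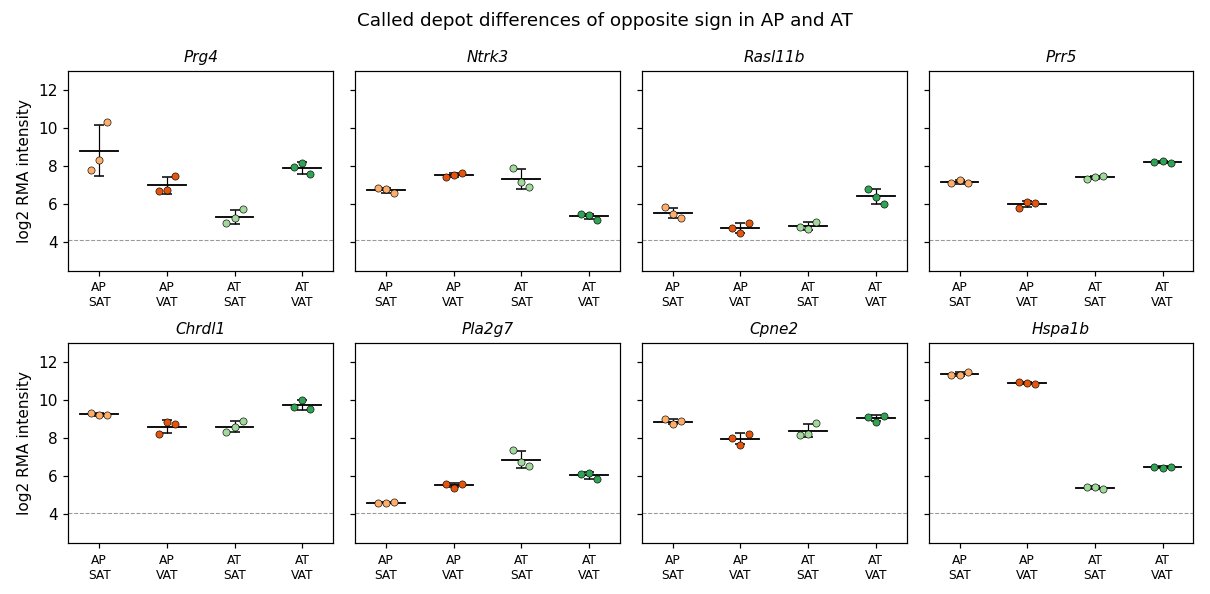
Log2 RMA intensity (vertical axis) of the 8 genes with the largest interaction among the 21 whose depot differences were called with opposite signs, with 1 point per array, bars at the group mean with its SD, and a dashed line at 4.10. In each panel the step from SAT to VAT in AP runs against the step in AT.

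Among the 39 genes called in both preparations with the same sign, 36 had the larger difference in AP (0.162%) and 3 in AT (0.0135%). Tcf21, a transcription factor of visceral mesoderm (NCBI Gene 21412), led them with 4.93, 5.33 and 5.04 in AP SAT, 9.83, 9.47 and 9.33 in AP VAT, 4.60, 5.02 and 4.96 in AT SAT and 5.65, 5.71 and 5.76 in AT VAT. The depot difference was 21.8-fold in AP and 1.80-fold in AT, with an interaction of 3.60 (SE 0.21, limma adjusted p = 7.64e-07). Col6a5, a collagen VI chain, was 5.91, 6.70 and 5.72 in AP SAT and 10.92, 11.06 and 10.99 in AP VAT, against 4.59, 4.84 and 5.19 in AT SAT and 7.47, 7.53 and 7.58 in AT VAT. Its interaction was 2.23 (SE 0.284, limma adjusted p = 0.00074). Matn2, a filament-forming matrix protein, differed by 6.26-fold in AP and 1.48-fold in AT, and Slit2, a guidance cue, by 5.60-fold and 1.46-fold, with interactions of 2.08 and 1.94 (limma adjusted p = 1.24e-05 and 4.73e-05).

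On the side lower in VAT, Akr1c18, which inactivates progesterone, was 10.12, 9.84 and 9.40 in AP SAT and 4.10, 4.35 and 4.36 in AP VAT, against 7.46, 7.02 and 8.26 in AT SAT and 4.82, 4.49 and 4.43 in AT VAT. Its interaction was -2.52 (SE 0.348, limma adjusted p = 0.00131). Il1r2, the decoy receptor for interleukin 1, was 10.87, 10.77 and 10.57 in AP SAT and 7.93, 7.58 and 9.30 in AT SAT, with both VAT groups between 3.79 and 4.50. Its interaction of -2.13 (limma adjusted p = 0.0169) was lost without AP SAT replicate 1 (0.0512) and over all probe sets (0.0802). In both genes VAT lay close to background in each preparation, and the preparations differed in their SAT levels. Adh7, a retinol-oxidizing alcohol dehydrogenase, had an interaction of -1.88 (limma adjusted p = 0.00564), with differences of -2.71 in AP and -0.83 in AT. The AT difference was near the threshold (limma adjusted p = 0.0466), and the class held in 7 of 22 alternatives.

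The 3 genes with the larger difference in AT included Mest, an imprinted gene that is raised in expanding adipocytes. Mest was 6.36, 6.15 and 6.89 in AT SAT and 9.64, 9.73 and 9.51 in AT VAT, against 6.73, 7.05 and 6.66 in AP SAT and 7.58, 7.30 and 7.4 in AP VAT. The differences were 8.94-fold and 1.53-fold, with an interaction of -2.55 (SE 0.233, limma adjusted p = 4.73e-05). Its AP difference was near the threshold (limma adjusted p = 0.0399), and the class held in 14 of 22 alternatives. Cdh19, a cadherin of Schwann cells, was called lower in VAT in both preparations, with means of 5.61 in AT SAT and 4.50 in AP SAT. Both VAT groups were below background, so the sizes of these differences are limits set by background. It had an interaction of 1.3 (limma adjusted p = 0.0124, or 0.085 after the housekeeping shift and 0.0571 over all probe sets).

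Position genes gave called interactions in both directions. Of 14 subcutaneous position factors, 9 were called lower in AP VAT (2.6% of all genes were) and 5 in AT VAT (1.75%), and 1 was higher in each. Calls were made for 3 of their interactions (2.15% over all genes), all negative: Tbx15, Tbx5 and En1. Tbx15, a limb and dermal T-box factor, was 8.05, 7.79 and 8.01 in AP SAT and 6.29, 6.55 and 6.86 in AT SAT, with both VAT groups between 4.02 and 4.60. Tbx5, the forelimb T-box factor, was 8.11, 8.04 and 7.82 in AP SAT, 6.01, 6.13 and 5.95 in AT SAT and 4.58 to 5.43 in VAT. Their interactions were -1.3 and -1.57 (limma adjusted p = 0.00779 and 0.000572), again with the SAT groups apart and the VAT groups near each other. En1, a homeobox factor of the skin and limb, had an interaction of -0.82 (limma adjusted p = 0.0165, or 0.268 after the housekeeping shift). Shox2 and Hoxc10 were lower in VAT by almost equal amounts, with differences of -1.02 and -1.78 in AP and -0.99 and -1.65 in AT, and their interactions of -0.03 and -0.13 were not called.

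Of 11 visceral position factors, 5 were called higher (3.03% of all genes were) and 1 lower (2.6%) in AP VAT, and 6 higher in AT VAT (2.8%). Called interactions were positive for 2 (0.987% of all genes), Tcf21 and Wt1, and negative for 2 (1.16%), Emx2 and Osr1. Over the whole list, 7 interactions were positive and 4 negative. Emx2, a homeobox factor of the urogenital ridge, was 7.78, 7.28 and 7.52 in AP SAT and 5.62, 5.33 and 5.36 in AP VAT, so it was lower in VAT although listed as visceral. In tissue it was 5.44, 5.26 and 6.00 in SAT and 5.09, 4.86 and 5.01 in VAT, and its interaction was -1.51 (SE 0.244, limma adjusted p = 0.0046). The Osr1 call was lost in 15 of 22 alternatives, among them the omission of any array but AT SAT replicate 3 (adjusted p = 0.0523 to 0.112). Hoxa5 had differences of 1.84 in AP and 1.05 in AT, and its interaction of 0.79 was called only without AT VAT replicate 2 (limma adjusted p = 0.217 with it and 0.00452 without it).

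Mesothelium was the counterpart, a large depot difference that both preparations shared. Each of its 15 markers was called higher in VAT in both preparations (3.03% of all genes were in AP and 2.8% in AT). The median difference was 2.40 in AP and 2.75 in AT, with a median of 0.14 for the interaction. Their summed intensity was 851.6 to 985.8 in AP SAT, 6562 to 8823 in AP VAT, 644.8 to 754.2 in AT SAT and 4452 to 5554 in AT VAT. The part of these cells in the genes higher in AP VAT was not tested. Msln, mesothelin, had an interaction of 0.36 (limma adjusted p = 0.579). Upk3b, a uroplakin of mesothelial cells, had 0.95 (limma adjusted p = 0.228), which was called only without AP SAT replicate 2 (0.0143). Wt1, the Wilms tumour factor, was the 1 marker with a called interaction, of 0.71 (limma adjusted p = 0.0219), lost without AP SAT replicate 1, AP VAT replicate 1 or 2, AT SAT replicate 1 or AT VAT replicate 1 (0.0501 to 0.0671) and after the housekeeping shift (0.996).

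Lists of progenitor states differed in how far the depot mattered. Of 15 genes of interstitial progenitors, the Dpp4-expressing early precursors, 11 were called lower in AP VAT (2.6% of all genes were) and 4 in AT VAT (1.75%). Their medians were -0.97 and -0.58. Their interactions were negative in 13 of 15 (11172 of 22180 over all genes) with a median of -0.82. Calls were made for 4 of these interactions (2.15% over all genes): Wnt2, Sema3c, Pcsk6 and Dact2, the last named after its value of -0.81 was seen. Wnt2, a Wnt ligand, was 6.82, 6.65 and 6.46 in AP SAT and 4.88, 4.90 and 4.73 in AP VAT, against 5.18, 5.54 and 5.33 in AT SAT and 4.25, 4.36 and 4.60 in AT VAT. The Wnt2 call (-0.86) was lost without AP SAT replicate 1 or 2, AT SAT replicate 1 or AT VAT replicate 3 (0.0568 to 0.0711) and after the housekeeping shift (0.211). The Pcsk6 call was lost without AP SAT replicate 1 or 2, AP VAT replicate 2 or AT SAT replicate 1 or 2 (adjusted p up to 0.066) and after the housekeeping shift (0.0825), and that of Sema3c without any array but AT SAT replicate 3 (adjusted p up to 0.138). The Sema3c call was also lost with the replicate block as a fixed (0.0673) or random effect (0.0609), with quantile normalization (0.0604) or cyclic loess (0.0712), and with the mean over probe sets (0.0518). Dpp4 itself had differences of -1.35 in AP and -0.17 in AT. Its interaction of -1.18 was called without AT SAT replicate 3 (limma adjusted p = 0.164 with it and 0.00364 without it) and after the housekeeping shift (0.0158). Pi16, another marker of these cells, had almost equal differences of -1.61 and -1.57.

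Of 12 genes of committed preadipocytes, 1 had a called positive interaction (0.987% of all genes) and 1 a called negative one (1.16%). Ggt5, a glutamyltransferase, had an interaction of 1.28 (limma adjusted p = 0.0124, or 0.0938 after the housekeeping shift and 0.0569 over all probe sets). Lpl, lipoprotein lipase, had one of -0.55 that was lost in 17 of 22 alternatives. Among these were the omission of any array but AT SAT replicate 3 (adjusted p up to 0.124), the replicate block as a fixed (0.0773) or random effect (0.0542), cyclic loess (0.107), the mean over probe sets (0.113) and the housekeeping shift (0.854). Of 10 genes of F3-expressing regulatory progenitors, 1 had a called positive and 1 a called negative interaction, beside the same shares of all genes. Igfbp3, a carrier of insulin-like growth factors, had an interaction of -1.43 (limma adjusted p = 0.015, or 0.0672 over all probe sets). Igfbp3 was 9.25, 8.98 and 9.33 in AP SAT and 7.74, 7.34 and 7.93 in AP VAT, against 6.09 to 6.93 in AT. Mgp, matrix Gla protein, had an interaction of 1.12 that was lost without AP SAT replicate 1 or 2, AP VAT replicate 2 or 3, AT SAT replicate 1 or 2 or AT VAT replicate 1 (adjusted p up to 0.0856) and after the housekeeping shift (0.291). None of the 12 general progenitor markers had a called interaction, which is near the all-gene share of 2.15%. Pdgfra and Pdgfrb differed by -0.03 and 0.01 in AP and by -0.35 and -0.40 in AT.

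Further called interactions came singly. Wnt10b, a Wnt ligand that restrains adipogenesis, had one of -1.01 (limma adjusted p = 0.0132, or 0.0688 after the housekeeping shift and 0.0503 over all probe sets). Esr1, the estrogen receptor, had one of -0.89 (limma adjusted p = 0.0181), lost without AP SAT replicate 1, AP VAT replicate 1 or 2 or AT VAT replicate 1 (0.0501 to 0.0585) and after the housekeeping shift (0.177). Col4a6 and Col6a6, chains of collagens IV and VI, had 0.88 and 0.97, both lost after the housekeeping shift (adjusted p = 0.8 and 0.6), as did Actn3, a muscle actinin, with 1.03 (0.462, and 0.0569 over all probe sets). Plin4, a lipid droplet coat protein, had -1.10 (limma adjusted p = 0.0206), lost without AP SAT replicate 2, AP VAT replicate 2 or AT SAT replicate 1 (0.0534 to 0.0614) and with cyclic loess (0.0513). Cyp51, of cholesterol synthesis, had -1.5, lost without any array but AP SAT replicate 3, AP VAT replicate 1, AT SAT replicate 3 and AT VAT replicate 3 (adjusted p up to 0.106), with a random replicate block (0.0507) and with cyclic loess (0.0501). Its list of 12 had 5 called lower in AP VAT (2.6% of all genes were) and 1 in AT VAT (1.75%). Plk1, a mitotic kinase, had 0.86, lost without AP SAT replicate 1 or 3, AT SAT replicate 1 or AT VAT replicate 1 or 2 (adjusted p up to 0.0664) and after the housekeeping shift (0.862). Its list of 21 proliferation genes had 20 positive interactions (10987 of 22180 over all genes) and a median of 0.27.

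Across 42 lists, 60 of 640 distinct genes measured had a called interaction (9.38%, against 2.15% of all genes). The lists were chosen with results of these data known, so this share describes the choice as well as the data. In 13 lists no interaction was called. Among them were T and NK cells (median 0.32), B cells (-0.19), macrophages (0.15), MHC class II (0.07), lipogenesis (0.20), adipogenic transcription factors (-0.10), mammary and skin epithelium (0.01), epididymis and testis (0.06) and ovary (0.10). The epithelium list and the list of epididymis and testis were near background in all groups, with mean log2 levels of 4.08 to 4.33 and 3.84 to 4.13. The ovary list lay higher, at 4.71 to 4.93 in AP and 4.36 to 4.64 in AT. In AP VAT, 1 of its 9 members was called higher (3.03% of all genes were) and 1 lower (2.6%). Cd3e was called only without AT SAT replicate 3 (limma adjusted p = 0.629 with it and 0.0284 without it).

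**Figure D5:**
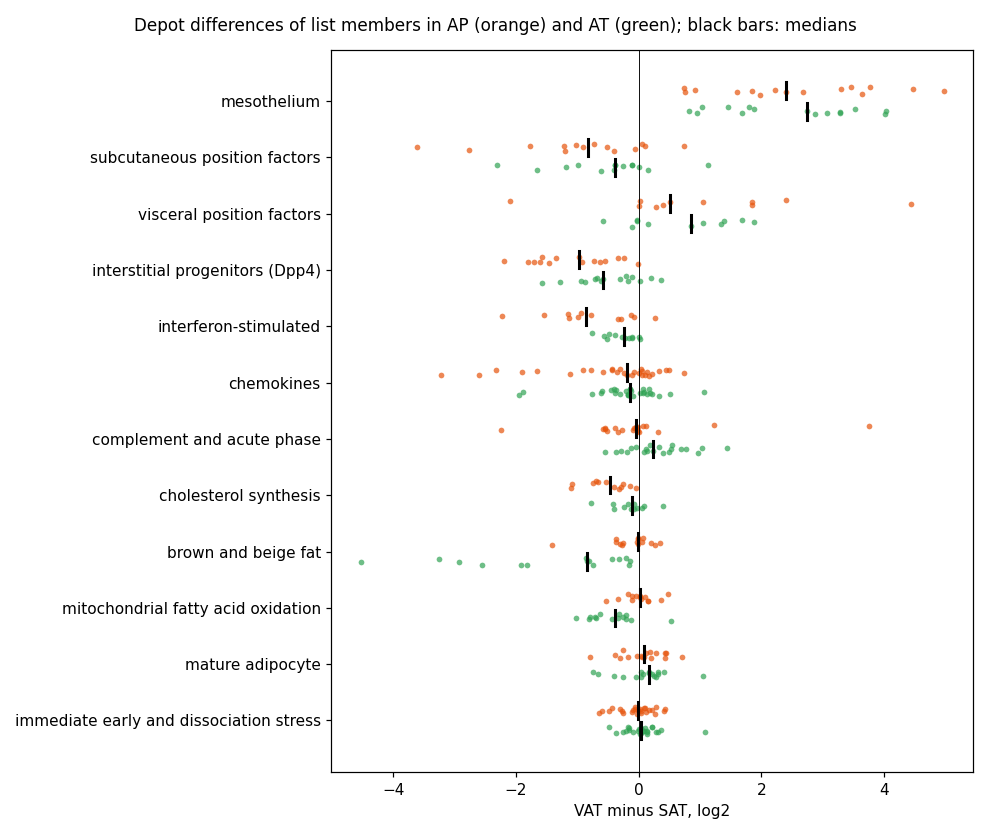
Each point is 1 gene of a list, placed by its VAT minus SAT difference on the log2 scale in AP (orange, upper row of each list) or AT (green, lower row), with a black bar at the median. Mesothelial genes lie to the right in both preparations, brown and beige fat genes reach far to the left in AT alone, and interferon-stimulated and Dpp4 progenitor genes lie further to the left in AP than in AT.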

How the data were processed

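The authors deposited a log2 intensity for each probe set and array. It was computed by RMA, which corrects background, normalizes by quantiles and summarizes probes, and the software was Affymetrix Expression Console 1.3.0.187, per the submitters' processing notes. Base 2 was taken from the method and the range of 1.69 to 13.48, and the annotation and summary level behind the probe sets are not given in the sources used here. Of 41345 probe sets, 23521 were annotated to 1 gene, 1814 to several and 16010 to none, and only the first kind was used. The probe set with the highest mean was kept per gene (1082 genes had several), which left 22180 genes.

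Deposited values went unchanged into limma (3.58.1, under R 4.3.3). The model gave each of the 4 groups of 3 arrays its own mean and pooled the spread over groups, on 8 residual degrees of freedom plus 6.84 from the prior. The tests were 2-sided and adjusted by Benjamini-Hochberg over all genes. SE is that of the fit, with a median of 0.179 for the interaction, and fold values are powers of 2 of the log2 difference. Precision is limited by how few arrays there were. The script was tested on simulated data.

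The genes named are the 15 largest called interactions of each sign, up to 8 genes of each class, up to 3 of each sign per gene list, and fixed markers, leaving out predicted genes, small RNA, smell receptors and immune receptor segments. The members and lists were chosen with earlier results of these data known. Some of the fixed markers are not reported here. Results were recomputed with a block for the replicate number, other normalizations, empirical Bayes options, array weights, a filter on dim genes, other choices of probe set and leaving out each array.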

Additional observations from a re-analysis of the deposited data

Results flagged for a closer look

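The first result to look at again is that the depot difference itself differed between progenitor preparations and tissue in 476 genes, by limma's test of the interaction.

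A further 8 named genes had called depot differences of opposite sign, with every array of VAT on one side of SAT in AP and on the other side in AT. The interactions, on the log2 scale, were -4.36 for Prg4, 2.76 for Ntrk3, -2.34 for Rasl11b, -1.99 for Prr5, -1.77 for Chrdl1, 1.74 for Pla2g7, -1.57 for Cpne2 and -1.56 for Hspa1b. Of all 21 genes of opposite sign, only 2 kept that class in all 22 alternatives. Groups of 3 arrays were too small for a test of single outlying arrays.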

How the results depend on the processing

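No called interaction of a named gene changed sign among 2375 values under 22 alternatives, while those of Adipoq, Fos, Hoxc10, Pdgfra, Pecam1 and Shox2, which were not called, took both signs. Of the 2375 values, 2079 stayed on the same side of the threshold, 289 lost a call and 7 gained one. Of 924 list medians, 63 moved by more than the spread between replicates. Leaving out 1 array gave 264 to 626 called interactions, 849 to 1374 depot differences in AP and 660 to 1026 in AT, 127 to 275 AP-only genes, 91 to 223 AT-only genes and 10 to 27 of opposite sign. Shifting the arrays to an equal median over 11 housekeeping genes moved the median of all genes by 0.17 in AP, 0.33 in AT and -0.16 in the interaction. That left 179 called interactions (28.5% of them positive, against 46.0%), 703 depot differences in AP, 73 AP-only genes, 75 AT-only genes and 7 of opposite sign. The shift adds 1 common error per array to all genes: the median SE of the interaction rose from 0.179 to 0.342 and the prior degrees of freedom became infinite, so that all genes had the same SE. Ucp1 had an adjusted p of 8.08e-13 there, although its replicates were far apart. Adjusting over all probe sets, an alternative added after seeing the data, left 205 interactions, 102 AP-only genes, 72 AT-only genes and 9 of opposite sign. Demanding a difference of at least 1 left 222 interactions, 370 and 251 depot differences in AP and AT, 93 AP-only and 68 AT-only genes and 2 of opposite sign. Dropping the demand on the interaction gave 869 AP-only and 628 AT-only genes. The main model did not pair the same-numbered arrays of different groups. The replicate block joined arrays of the same number across both preparations, and no model paired SAT with VAT within a preparation alone. The correlation of their deviations was -0.28 to 0.159, over 0.1 in 3 of 18 pairs, and 7 of 18 arrays matched their own number best. Deviations from means of 3 arrays cannot settle whether these arrays share mice. With the replicate block as a fixed effect, 417 interactions were called, with 200 AP-only, 131 AT-only and 19 opposite genes; as a random effect (correlation -0.0592), 382, 193, 119 and 16.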
